A study of Rattus norvegicus with 21 samples.

Results

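Renal cortical transcripts of 5 genes of fatty acid binding, lipolysis and uncoupling were examined in Sprague Dawley and Zucker Diabetic Sprague Dawley (ZDSD) rats. The genes were chosen by Ensembl identifier from the 26404 genes counted. They were Fabp1 and Fabp4, which encode fatty acid binding proteins, Lpl, which encodes lipoprotein lipase, and Ucp2 and Ucp3, which encode mitochondrial carriers of the uncoupling protein family. All rats were male and 37 weeks old at tissue collection. The groups were healthy Sprague Dawley controls (SD, n=6), sham-operated untreated ZDSD rats (SHAM, n=7 compared of 9 libraries), and ZDSD rats that had sham surgery, dietary restriction and daily fenofibrate, metformin, ramipril, rosuvastatin and liraglutide (DMT, n=6, labelled medical bypass). The 2 SHAM libraries left out, from rats 343 and 348, held 121511 and 101534 counts.

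The ZDSD rat is a model of obesity, type 2 diabetes and diabetic kidney disease in which leptin signalling is intact. SD rats are another strain and had no sham surgery, before which ZDSD rats received insulin. Strain, diabetes and surgery therefore cannot be told apart in SHAM vs SD, nor can these and the intervention in DMT vs SD. Diet and the medications were given together, so their effects cannot be told apart in DMT vs SHAM either. In the labels, libraries of SD and SHAM rats carry a note of re-analysis that those of DMT rats lack, and this difference cannot be told apart from DMT. In the 19 rats compared, total counts ranged from 14502127 to 27597901 (median 23373166). At these depths 3 counts correspond to 0.109 to 0.207 counts per 1000000 counts of the library (CPM). In SHAM rats the totals were 14502127 to 23995113, compared with 20896370 to 27597901 in SD and 22308943 to 26812590 in DMT rats.

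Circulating triglycerides are hydrolysed at the capillary wall by lipoprotein lipase, which releases fatty acids to the underlying cells. Inside cells, fatty acids are carried by small cytosolic binding proteins. Fabp1 is the liver type, which is also found in the proximal tubule in several species, and Fabp4 is the type of adipocytes, macrophages and some endothelial cells. Ucp2 and Ucp3 are carriers of the inner mitochondrial membrane. Ucp3 is best known from skeletal muscle and brown fat, whereas Ucp2 is widespread. Several of these genes are known targets of the peroxisome proliferator-activated receptors (PPARs), and fenofibrate is an agonist of PPARα.

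The files place Fabp1 (ENSRNOG00000006675) at chr4:163840320-163844102 on the plus strand of rn5, with 4 exons and 495 exonic bases. Fabp4 (ENSRNOG00000010805) lies at chr2:113547680-113552343 on the plus strand, with 4 exons and 626 exonic bases. Lpl (ENSRNOG00000012181) lies at chr16:22431494-22455871 on the minus strand, with 10 exons and 3608 exonic bases. Ucp3 (ENSRNOG00000017716) at chr1:171683566-171697137 and Ucp2 (ENSRNOG00000017854) at chr1:171707621-171713990 lie head to tail on the plus strand, 10483 bases apart. The same gap is 10479 bases in the RefSeq annotation of GRCr8. No other gene of the files overlaps any of the 5 on either strand.

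Of the 5 genes, 4 passed the filter on low counts and were tested, and Ucp3 did not pass. A gene was called when its adjusted p-value was under 0.05 and its fold-change at least 1.3 in either direction. In DMT vs SHAM, 0 of the 4 genes tested were called, against a background of 11.5% of the 14664 genes tested (4.12% called and higher, 7.36% called and lower). Here 2 of the 4, Fabp1 and Lpl, had an unadjusted p-value under 0.05 in edgeR, as did 33.8% of all genes tested, and DESeq2 called 0. In SHAM vs SD, 1 of 4 was called, namely Ucp2, which was higher, against a background of 18.3% (10.3% called and higher, 7.95% called and lower). In DMT vs SD, 2 of 4 were called, namely Fabp1, which was higher, and Lpl, which was lower, against a background of 18.2% (8.01% called and higher, 10.2% called and lower). Fabp1 was among the genes tested only through its level in DMT rats. With so few genes, these counts say nothing about the list as a group. The median log2 fold-change of the 4 genes was -0.10 in DMT relative to SHAM, 0.68 in SHAM relative to SD and 0.55 in DMT relative to SD. Over all genes tested it was -0.0040, 0.0056 and 0.0078. A median of 4 genes, with Fabp1 among them, says nothing about the list as a group either. The 3 comparisons share rats and are not independent of each other.

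**Figure D1:**
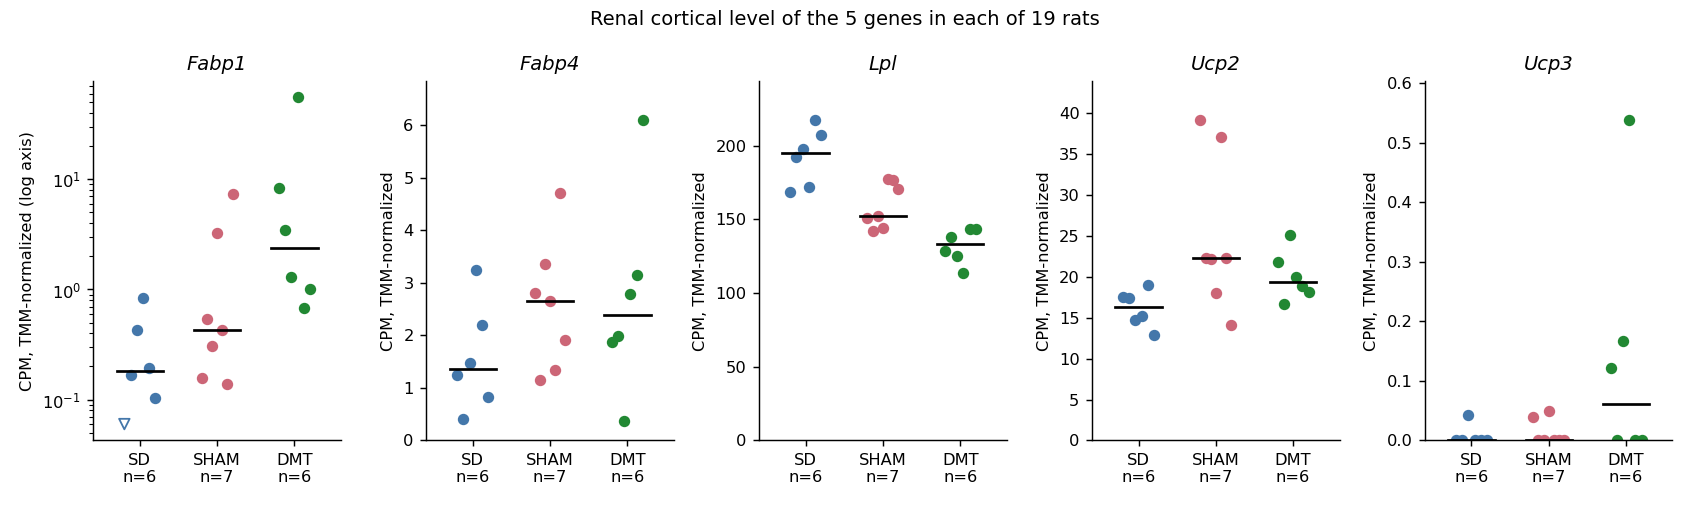
Level of each gene in CPM, normalized by the trimmed mean of M-values (TMM), in 6 SD, 7 SHAM and 6 DMT rats. Each point is a rat, the line is the group median, the Fabp1 axis is logarithmic and the open triangle is the SD rat with 0 counts of Fabp1. DMT rat 329 stands apart for Fabp1 at 55.4 CPM and for Ucp3 at 0.539 CPM, and the Lpl values of DMT and SD rats do not overlap.

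Per kilobase of exon, the 5 genes covered a wide range of levels. Lpl was the most abundant in each group by mean, at 53.3 ± 5.37 RPKM (SD, n=6) in SD, 44.1 ± 4.21 (n=7) in SHAM and 36.6 ± 3.27 (n=6) in DMT rats. Its mean over the 19 rats lay above 83.6% of the 14664 genes tested. Ucp2 was the next in SD and SHAM rats, at 10.1 ± 1.41 and 15.7 ± 5.93 RPKM, and was at 12.6 ± 1.87 RPKM in DMT rats. Its mean lay above 52.8% of genes. In SD rats Fabp4 (2.497 ± 1.63 RPKM) exceeded Fabp1 (0.585 ± 0.618 RPKM) by mean and was the higher of both in 6 of 6 rats, although their ranges overlapped. In SHAM rats the means were 4.09 ± 1.98 RPKM for Fabp4 and 3.52 ± 5.50 for Fabp1, the medians were 4.22 and 0.867 RPKM, and Fabp4 was the higher in 5 of 7 rats. Without rat 340, the SHAM mean of Fabp1 was 1.62 ± 2.42 RPKM. In DMT rats Fabp1 had a mean of 23.6 RPKM with an SD of 43.7, and its median of 4.82 RPKM lay between those of Fabp4 (3.82) and Ucp2 (12.1). Fabp1 was higher than Fabp4 in 4 of 6 DMT rats, and without rat 329 the DMT mean of Fabp1 was 5.97 ± 6.45 RPKM. Ucp3 was the lowest of the 5 in every group, with means of 0.0030 RPKM in SD, 0.0053 in SHAM and 0.058 in DMT rats.

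**Figure D2:**
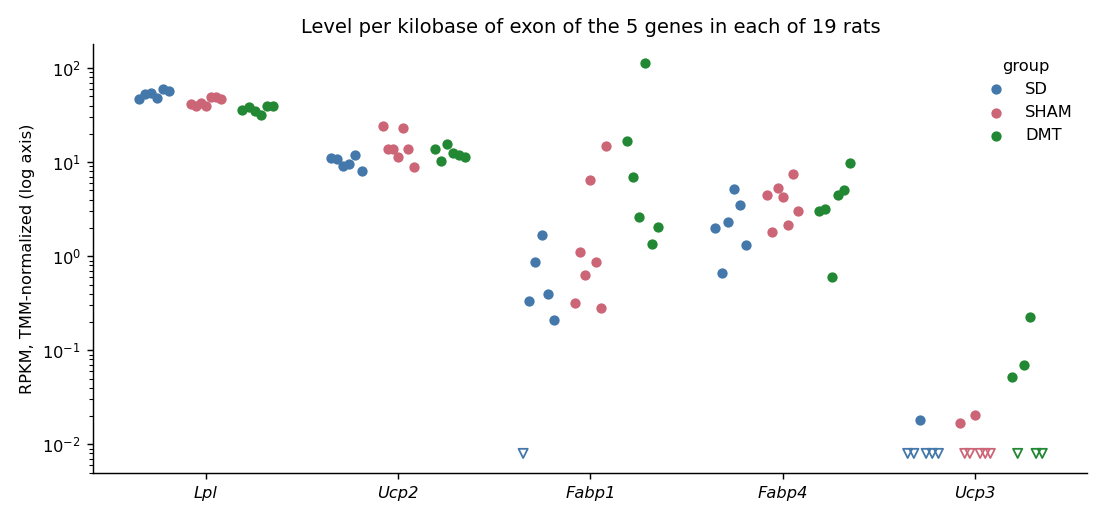
Level per kilobase of exon (RPKM, TMM-normalized, logarithmic axis) of each gene in 19 rats, with SD, SHAM and DMT rats in separate colours. Each point is a rat and open triangles mark rats with 0 counts, set at the foot of the axis. Lpl lies above Ucp2 in every rat, and Fabp1 spreads from 0 to 112 RPKM.

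Fabp1 varied widely between rats of the same group. In the 6 SD rats it was at 0, 0.103, 0.166, 0.195, 0.430 and 0.842 CPM, which correspond to 0 to 21 counts. The SD rat with 0 counts could hold up to the level of 3 counts. In the 7 SHAM rats the lowest value was 0.138, the median 0.429 and the highest 7.39 CPM. SHAM rats 321 (3.23 CPM) and 340 (7.39 CPM) stood above all SD rats, and the other SHAM rats lay within the SD range. In the 6 DMT rats Fabp1 was at 0.673, 1.004, 1.29, 3.48, 8.32 and 55.4 CPM. The highest of these, rat 329, was 6.67 times the next and held 77.1% of the Fabp1 counts of the DMT group. Of the 6 DMT rats, 5 lay above every SD rat and 2 lay above every SHAM rat, so the groups overlapped in each comparison.

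The group means of Fabp1 were 0.289 ± 0.306 CPM in SD, 1.74 ± 2.72 in SHAM and 11.7 ± 21.6 in DMT rats. The medians were 0.180, 0.429 and 2.38 CPM. The fitted log2 fold-change in DMT vs SD was 5.26 (95% confidence interval 2.58 to 7.94, adjusted p=0.00404), and was called. Since Fabp1 passed the filter on low counts only through the DMT rats (all 6, but 2 of 6 SD and 2 of 7 SHAM rats, had at least 10 counts), its entry into the test depended on its level there. In the fit without that filter the value was 5.27 (adjusted p=0.00402). In DMT vs SHAM it was 2.79 (0.70 to 4.87) and did not pass, with an adjusted p=0.0546. In SHAM vs SD it was 2.47 (-0.33 to 5.28) and did not pass either, with an adjusted p=0.157. The exact permutation test over rats on log2 CPM gave p=0.00433 for DMT vs SD, p=0.0857 for DMT vs SHAM and p=0.143 for SHAM vs SD (two-sided, unadjusted).

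Leaving out single rats moved these differences. Without rat 329, the log2 fold-change of Fabp1 fell to 0.79 in DMT vs SHAM (adjusted p=0.557) and to 3.28 in DMT vs SD, which was still called (adjusted p=0.0232). Without SHAM rat 340, the log2 fold-change was 3.87 in DMT vs SHAM, which was then called (adjusted p=0.0127), and 1.39 in SHAM vs SD (adjusted p=0.448). Leaving out DMT rats 328, 341 or 347, the lowest of their group, also gave a call in DMT vs SHAM, with log2 fold-changes of 3.02 to 3.04. The biological coefficient of variation of Fabp1 within groups was 1.24, compared with a median of 0.114 over all genes, and 99.8% of genes had a lower value.

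**Figure D3:**
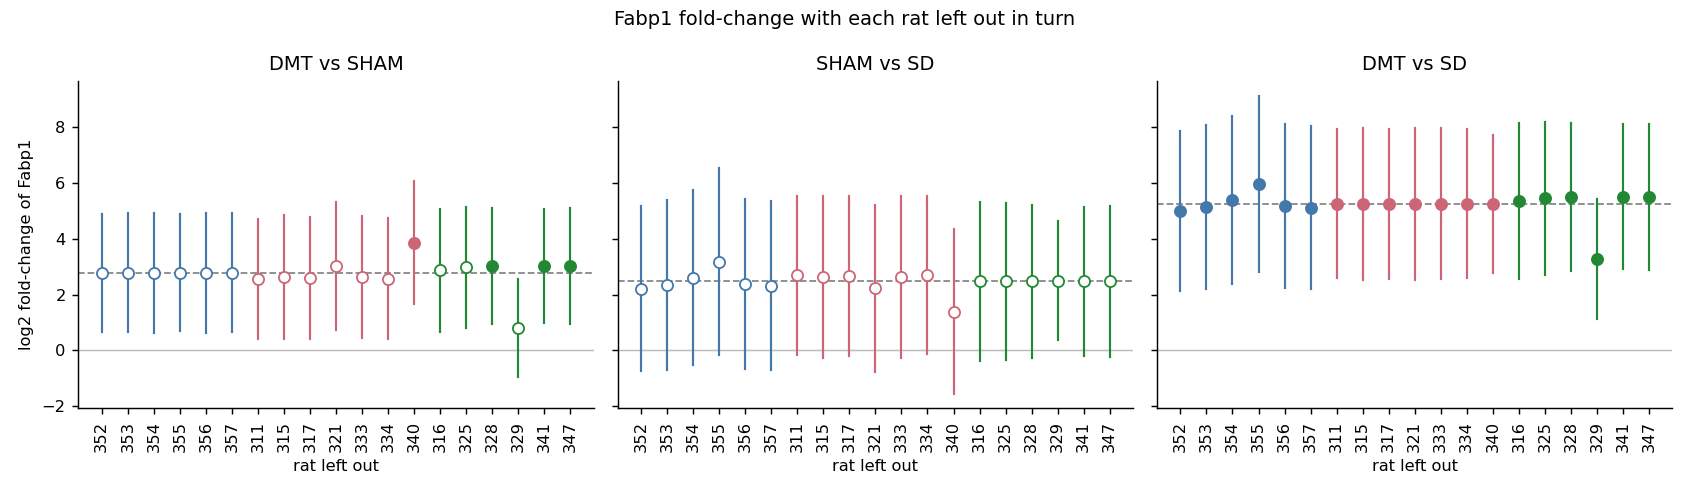
Fitted log2 fold-change of Fabp1 (vertical axis) in 3 comparisons after leaving out each of the 19 rats in turn (horizontal axis). Lines are 95% confidence intervals, filled points were called, and the dashed line is the value with all 19 rats. DMT vs SHAM fell to 0.79 without rat 329 and was 3.87 without rat 340, whereas DMT vs SD remained called in every case.

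Rat 329 was also set apart in other genes. In this rat, 45 of the 14664 genes tested (0.307%), Fabp1 included, reached over 4 times the level of the next DMT rat. Each had at least 10 counts there. There were 0 such genes in each of the other DMT rats, 0 to 5 in SHAM rats and 0 to 10 in SD rats, each relative to the own group. Its total of 22308943 counts was the lowest of the DMT group. The part of these features in the Fabp1 values was not tested. In bulk tissue, a difference in the number of cells of a type and a difference in RNA per cell cannot be told apart. The files do not pair identifiers with symbols, so the levels of markers of proximal tubule, adipocytes, muscle or other cell types in this rat and the others were not analysed here.

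The RefSeq promoter table matched 3 of the 5 genes, Fabp1, Ucp2 and Ucp3, and not Fabp4 and Lpl. The 3 promoters are shown because the genes of this set include known PPAR targets. PPARs bind, together with the retinoid X receptor, direct repeats of the letters AGGTCA with a spacing of 1 base. The 250 bases before the RefSeq start of each gene (GRCr8) are printed 5′ to 3′ on the gene's strand. Capitals mark matches on either strand to AGGTCANAGGTCA with up to 1 mismatch or to a single repeat, AGGTCA, without mismatch, and both searches can find the same bases. They lie at chr4:104749090-104749339 for Fabp1, chr1:164227660-164227909 for Ucp3 and chr1:164251123-164251372 for Ucp2, all on the plus strand.
Fabp1: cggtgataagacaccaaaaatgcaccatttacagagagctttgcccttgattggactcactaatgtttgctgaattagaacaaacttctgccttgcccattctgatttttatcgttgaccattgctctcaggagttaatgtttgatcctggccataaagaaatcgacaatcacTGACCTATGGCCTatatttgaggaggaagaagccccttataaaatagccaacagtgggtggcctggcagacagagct
Ucp3: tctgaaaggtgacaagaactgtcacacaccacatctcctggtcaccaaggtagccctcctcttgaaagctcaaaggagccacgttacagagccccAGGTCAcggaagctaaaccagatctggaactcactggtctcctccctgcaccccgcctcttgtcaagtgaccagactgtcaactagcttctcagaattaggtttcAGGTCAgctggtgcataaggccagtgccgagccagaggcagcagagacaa
Ucp2: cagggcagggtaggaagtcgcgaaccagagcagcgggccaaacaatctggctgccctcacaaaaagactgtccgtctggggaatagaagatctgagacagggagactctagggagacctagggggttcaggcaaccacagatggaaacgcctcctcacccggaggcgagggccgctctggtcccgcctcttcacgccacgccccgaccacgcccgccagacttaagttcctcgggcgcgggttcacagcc

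The Fabp1 window holds a match to AGGTCANAGGTCA on the minus strand with 1 mismatch, from 77 to 65 bases before the start, which reads AGGCCATAGGTCA on that strand. Of the 33469 promoters in the table, 0.368% hold a match with up to 1 mismatch and 0.0508% an exact match in a window of this length. The Ucp3 window holds AGGTCA on the plus strand at 155 to 150 and at 50 to 45 bases before the start, and 14.1% of all promoters hold these letters at least once on either strand. Neither motif was found in the Ucp2 window. The GC content was 43.2% for Fabp1, 53.6% for Ucp3 and 62.8% for Ucp2, compared with a median of 51.2% over all promoters. These matches describe letters and are not evidence of binding. The RefSeq span of Fabp1 is 8818 bases and that in the files 3783 bases, so the start used here may not be the start of the gene model that was counted. For Ucp3 these spans are 12984 and 13572 bases, so its start may differ from the counted one too.

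Fabp4, the binding protein of adipocytes and macrophages, was low in all groups and did not pass the test in any comparison. In SD rats it was at 0.415, 0.821, 1.24, 1.46, 2.19 and 3.25 CPM. In SHAM rats the lowest was 1.14, the median 2.64 and the highest 4.70 CPM. In DMT rats it was at 0.374, 1.88, 1.99, 2.79, 3.14 and 6.10 CPM. The ranges of the 3 groups overlapped, and the DMT group held both the lowest value of all 19 rats, in rat 328, and the highest, in rat 347. The group means were 1.56 ± 1.02, 2.56 ± 1.24 and 2.71 ± 1.92 CPM.

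The log2 fold-change of Fabp4 was 0.07 in DMT vs SHAM (95% confidence interval -0.90 to 1.04, adjusted p=0.939). It was 0.72 in SHAM vs SD (-0.29 to 1.74, adjusted p=0.254) and 0.79 in DMT vs SD (-0.25 to 1.83, adjusted p=0.235). Without SD rat 355 the value in SHAM vs SD was 1.08 (adjusted p=0.115), and without DMT rat 347 that in DMT vs SD was 0.38 (adjusted p=0.586) and that in DMT vs SHAM was -0.34 (adjusted p=0.656). These intervals leave room for changes larger than the threshold of 1.3-fold in either direction in DMT vs SHAM, and for a rise of up to 3.33-fold in SHAM vs SD. The coefficient of variation of Fabp4 was 0.580, above that of 98.9% of genes. Fabp1 and Fabp4 did not spread alike between rats, as rat 329 was at 2.79 CPM of Fabp4, close to the group mean.

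Lpl, the lipase that acts on lipoprotein triglycerides, was the most precisely measured of the 5, with 2362 to 4629 counts per rat. In SD rats it was at 169, 172, 192, 198, 207 and 218 CPM. In SHAM rats the lowest was 142, the median 152 and the highest 178 CPM. In DMT rats it was at 114, 125, 129, 138, 143 and 144 CPM. All 6 DMT rats lay below all 6 SD rats, a separation in this direction that 8.97% of the genes tested showed. SHAM rats lay between, with 4 of 7 below every SD rat, and 4 of 6 DMT rats lay below every SHAM rat.

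The group means of Lpl were 192 ± 19.4 CPM in SD, 159 ± 15.2 in SHAM and 132 ± 11.8 in DMT rats. Lpl fell in DMT vs SD, with a log2 fold-change of -0.54 (95% confidence interval -0.71 to -0.38, adjusted p=3.66e-05). This is 0.686 times the SD level. Relative to SHAM, the log2 fold-change in DMT rats was -0.27 (-0.43 to -0.11, adjusted p=0.0165), and in SHAM vs SD it was -0.27 (-0.43 to -0.12, adjusted p=0.00854). Both had an adjusted p-value under the threshold but a fold-change under 1.3, and were not called. The exact permutation test over rats gave p=0.00216 for DMT vs SD, the smallest that 6 against 6 rats allow, p=0.00466 for DMT vs SHAM and p=0.0105 for SHAM vs SD (two-sided, unadjusted). When libraries were scaled by their totals alone, the log2 fold-change in SHAM vs SD was -0.15 (adjusted p=0.155). When the 1.3-fold threshold was tested within the model, DMT vs SD had an adjusted p=0.0730.

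**Figure D4:**
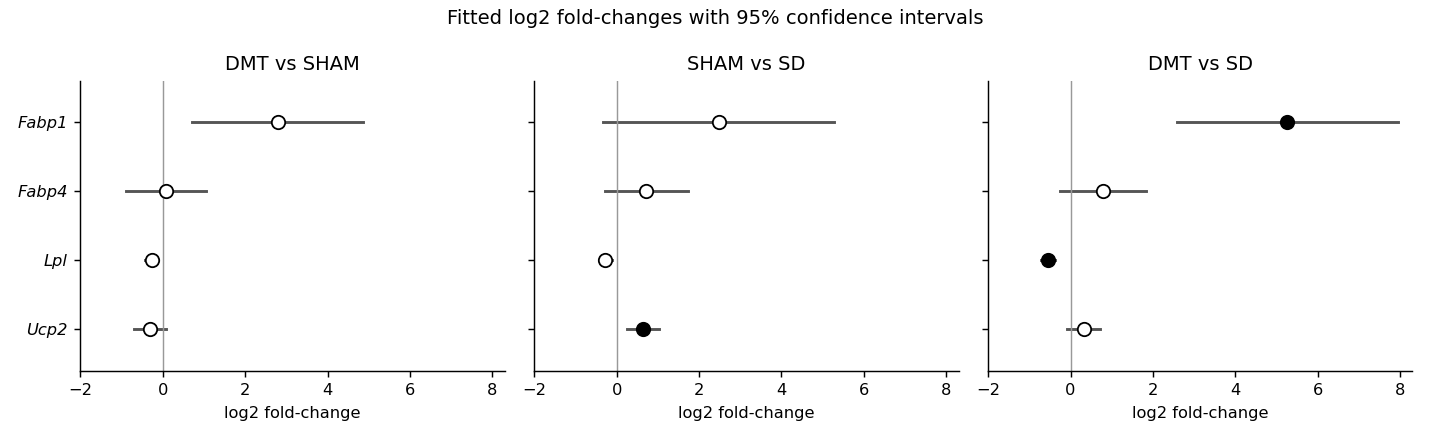
Log2 fold-change (horizontal axis) of the 4 genes tested in each of the 3 comparisons, from one edgeR model of 19 rats. Lines are 95% confidence intervals and filled points were called. The intervals of Lpl are narrow and those of Fabp1 wide, with 5.26 for Fabp1 and -0.54 for Lpl in DMT vs SD.

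Ucp2, the widespread member of the uncoupling protein family, was highest by mean in SHAM rats. In SD rats it was at 12.9, 14.7, 15.2, 17.4, 17.6 and 19.04 CPM. In SHAM rats the lowest was 14.1, the median 22.3 and the highest 39.2 CPM. In DMT rats it was at 16.7, 18.2, 18.9, 19.95, 21.9 and 25.1 CPM. SHAM rats 311 (39.2 CPM) and 333 (37.1 CPM) lay above every rat of the other groups, whereas the other 5 SHAM rats were at 14.1 to 22.4 CPM. Of the 7 SHAM rats, 5 lay above every SD rat. SHAM rat 340, which had the highest Fabp1 level of its group, had the lowest Ucp2 level.

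The group means of Ucp2 were 16.1 ± 2.25 CPM in SD, 25.0 ± 9.48 in SHAM and 20.1 ± 3.00 in DMT rats. Ucp2 rose in SHAM vs SD, with a log2 fold-change of 0.63 (95% confidence interval 0.24 to 1.03, adjusted p=0.0145), or 1.55-fold. Without rat 311 it was 0.49 and still called (adjusted p=0.0369). Relative to SHAM, the log2 fold-change in DMT rats was -0.32 (-0.71 to 0.07, adjusted p=0.242) and in DMT vs SD it was 0.32 (-0.09 to 0.72, adjusted p=0.228), and neither passed. The former was -0.17 without SHAM rat 311 and -0.20 without SHAM rat 333. In a model of only DMT and SD rats, the log2 fold-change in DMT vs SD was 0.33 (0.09 to 0.56, adjusted p=0.0319). This was under 1.3-fold and not called. The exact permutation test over rats gave p=0.0315 for SHAM vs SD, p=0.316 for DMT vs SHAM and p=0.0281 for DMT vs SD (two-sided, unadjusted). When the 1.3-fold threshold was tested within the model, SHAM vs SD had an adjusted p=0.269.

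Ucp3, the form of skeletal muscle and brown fat, was near the limit of detection in the renal cortex. In SD rats 1 count was found, in rat 354, and the other 5 rats had 0. In SHAM rats 1 count was found in each of rats 311 and 321, and the other 5 had 0. In DMT rats 12 counts were found in rat 329, 4 in rat 328 and 3 in rat 316, and the other 3 had 0. The counts thus lay in 3 of 6 DMT, 2 of 7 SHAM and 1 of 6 SD rats, and rat 329 held 63.2% of the DMT counts. A count of 0 allows a level of up to 3 counts, or 0.109 to 0.207 CPM in these rats.

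The mean level of Ucp3 was 0.00717 CPM in SD, 0.0127 in SHAM and 0.138 in DMT rats. Summed over the group, the rate of Ucp3 counts in DMT was 8.66 times that in SHAM rats (95% interval 2.09 to 76.6, which covers counting error only). Without rat 329 this ratio was 3.76, with an interval of 0.715 to 37.1. Relative to SD rats, with 1 count in all, the ratio was 18.4 (2.92 to 764), and without rat 329 it was 7.98 (1.02 to 360). Over rats, the difference of mean CPM in DMT vs SHAM was 0.125, with an exact permutation p=0.0862. In DMT vs SD it was 0.131 (exact permutation p=0.182) and in SHAM vs SD it was 0.0055 (exact permutation p=0.853). None of these differences passed 0.05 over rats at this depth. Fitted without the filter on low counts, edgeR called Ucp3 in DMT vs SD (log2 fold-change 3.42, adjusted p=0.0364) but not in DMT vs SHAM (2.81, adjusted p=0.0821). Ucp2, which lies downstream of Ucp3 on the same strand, did not have its highest DMT level in rat 329, where it was at 19.95 CPM.

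Ratios of 2 genes were compared within each rat, with 1 added to each count. The log2 ratio of Fabp1 over Fabp4 was -2.55 ± 1.35 in SD, -1.73 ± 2.36 in SHAM and 0.69 ± 2.63 in DMT rats. That of Fabp4 over Lpl was -7.17 ± 1.04, -6.07 ± 0.70 and -5.96 ± 1.25. That of Ucp2 over Ucp3 was 8.33 ± 0.52, 8.58 ± 0.64 and 7.61 ± 1.53. As most rats had 0 counts of Ucp3, the values of this ratio depend on the count added and on depth. Its difference in DMT vs SHAM was -0.97, -1.24 with 0.5 added, -0.71 with 2 added and -0.22 with the shallow SHAM libraries summed as 1. Without rat 329 it was -0.47. For Fabp1 over Fabp4, the difference in SHAM vs SD was 0.82, and 0.21 without SHAM rat 340. In DMT vs SHAM the difference of that ratio was 2.43, and 1.71 without rat 329. In 9 exact permutation tests, the lowest adjusted p was 0.199, for Fabp1 over Fabp4 in DMT vs SD and for Fabp4 over Lpl in SHAM vs SD. None of the 9 differences passed the adjustment. Across the 19 rats, with group means removed, none of the 10 pairs of genes was correlated after adjustment. The lowest adjusted permutation p was 0.0817, for Lpl and Ucp3 (Pearson r=-0.56, Spearman rho=-0.54 with an adjusted p of 0.141). Without the 2 rats farthest from the median of Lpl, r was -0.48, and most of the Ucp3 values were 0. With a pseudocount of 2, this pair alone changed its call, with an adjusted permutation p=0.0496.

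The genes tested near each locus were counted against the backgrounds given above (11.5%, 18.3% and 18.2% of genes). Within 1000000 bases of Fabp1, 19 genes were tested, of which 2 differed between DMT and SHAM rats at the thresholds, 6 between SHAM and SD rats and 6 between DMT and SD rats. Around Fabp4 these counts were 1, 2 and 3 of 10 genes, and around Lpl they were 1, 1 and 2 of 9 genes. Around Ucp2 and Ucp3 they were 2, 6 and 7 of 25 genes. In SHAM vs SD, where Ucp2 rose, 2 of the 25 neighbours were called higher and 4 lower, with a median log2 fold-change of 0.0013. In DMT vs SD, 2 neighbours of Lpl were called lower and 0 higher.

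**Figure D5:**
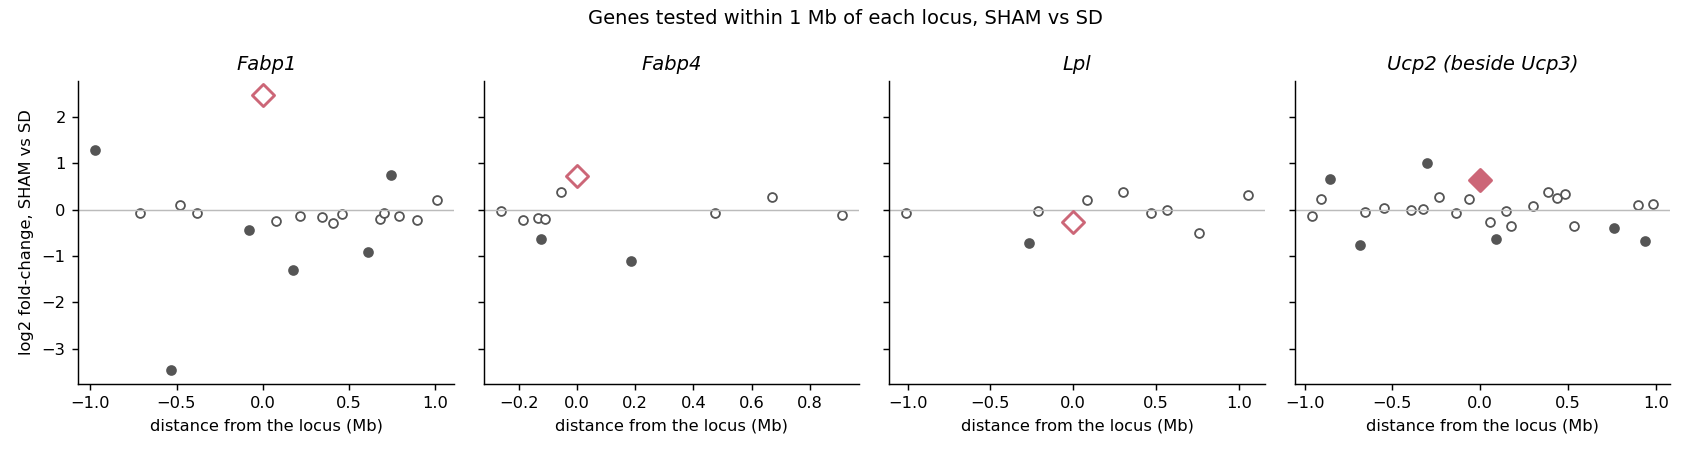
Log2 fold-change in SHAM vs SD of the genes tested within 1 Mb of Fabp1, Fabp4, Lpl and Ucp2, against the distance from the locus in Mb. Circles are neighbouring genes, the diamond is the named gene, and filled symbols were called. Called neighbours lie both above and below 0 around Fabp1 and Ucp2.

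The gene most like each member over the 19 rats was found by Pearson r of log2 CPM among all genes tested, as a description. The rats share group and library, and the value includes differences between groups. For Fabp1 it was ENSRNOG00000003020 on chromosome 6 (r=0.93), at 0.201 ± 0.165 CPM in SD, 0.372 ± 0.447 in SHAM and 1.19 ± 1.92 in DMT rats, and 32 genes had an r over 0.8. For Fabp4 it was ENSRNOG00000047756 on chromosome 1 (r=0.78), and 0 genes had an r over 0.8. For Lpl it was ENSRNOG00000015439 on chromosome 9 (r=0.86), at 383 ± 36.9, 348 ± 24.9 and 312 ± 12.8 CPM, and 26 genes had an r over 0.8. For Ucp2 it was ENSRNOG00000014367 on chromosome 4 (r=0.92), at 2.10 ± 0.282, 4.74 ± 2.66 and 3.20 ± 0.690 CPM, and 163 genes had an r over 0.8. The like gene of Fabp1 was called higher in DMT vs SD, with a log2 fold-change of 2.47. The like gene of Ucp2 was called higher in SHAM vs SD, with a log2 fold-change of 1.18. None of these 4 genes was called in DMT vs SHAM, where 11.5% of all genes tested were. Because the 4 genes were chosen by likeness over the same rats, their calls follow in part from that choice. They are no separate result.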

How the data were processed

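Renal cortical RNA-seq libraries of 21 ZDSD study rats were used, each taken as 1 animal. The authors deposited counts of fragments per Ensembl gene (26404 genes, rn5), which are not normalized. Per the file headers and labels, reads were trimmed with Trim Galore, mapped with STAR and counted as fragments by featureCounts (1.6.4), which was set to exons, read pairs and the reverse strand. Fragments that map to several positions or genes are not counted under these settings. Identifiers were paired with the names of the 5 genes by the rule that chose them. The files do not pair identifiers with symbols and 0 matched the RefSeq table, so further lipid handling genes and cell type markers were not analysed here.

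SHAM libraries under 1000000 counts were left out. In edgeR (4.0.16, under R 4.3.3), filterByExpr was applied to all genes (minimum count 10, minimum total count 15), which kept 14664, and normalized by TMM. One quasi-likelihood model of the 3 groups was fitted to 19 rats. P-values were adjusted by Benjamini-Hochberg over all genes tested, and standard errors and intervals were derived from the F statistic. CPM and RPKM used TMM-scaled library sizes and exonic length. Ucp3 was compared by exact permutation of mean CPM and by the exact ratio of summed counts. Ratios used log2 of counts + 1. Exact and permutation tests (100000 resamples for correlations) used Python 3.11.15 with numpy 2.4.6, pandas 2.3.3 and scipy 1.17.1, and figures used matplotlib 3.10.9. Intervals and floors from counts cover counting error only. On simulated counts for DMT vs SHAM with 200 of 14664 genes changed, 87% of 2-fold and 96% of 4-fold changes were recovered, with 4 false calls. These rates are for genes in general and do not apply to Fabp1, Fabp4 or Ucp2, which varied more between rats than most genes.

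Alternatives were DESeq2 (1.42.0), other scalings, filters, libraries and thresholds, and leaving out each rat. A robust fit and exact tests per gene were added after seeing the data. The genes named were the 5 members and the gene most like each in pattern. The members and lists were chosen with earlier results of these data known.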

Additional observations from a re-analysis of the deposited data

Results flagged for a closer look

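In 4 of 15 groups of values (5 genes in 3 groups of rats), 1 rat lay far from the others by Dixon's ratio. Chance gives about 1 in 20 such groups when values are normally distributed. That rate does not hold for groups of mostly 0 counts, such as those of Ucp3. Nor does it hold for skewed CPM values, such as those of Fabp1. The 4 groups are therefore not shown to exceed chance, and the ratio on a log scale was not tested. For Fabp1, DMT rat 329 was at 55.4 CPM, whereas the other DMT rats were at 0.673 to 8.32 CPM. SHAM rat 340 was at 7.39 CPM of Fabp1, whereas the other SHAM rats were at 0.138 to 3.23 CPM. For Ucp3, DMT rat 329 was at 0.539 CPM (12 counts), and the other DMT rats were at 0 to 0.166 CPM. SD rat 354 was at 0.0430 CPM of Ucp3, which is 1 count where the other SD rats had 0, so that the ratio was fixed at its maximum.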

How the results depend on the processing

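Of the 12 log2 fold-changes of the 4 genes tested, only Fabp4 in DMT vs SHAM changed direction under any alternative run. It was -0.34 without DMT rat 347, -0.05 without SHAM rat 315, -0.03 without SHAM rat 333 and -0.15 as a difference of mean log2 CPM in the exact permutation test, with a range over rats left out of -0.34 to 0.30. Fabp1 in DMT vs SHAM, which was not called, was called with all 21 libraries (2.77, adjusted p=0.0411) and with the shallow SHAM libraries summed as 1 (2.77, adjusted p=0.0473). Over rats left out it ranged from 0.79 (without DMT rat 329) to 3.87 (without SHAM rat 340), and over all its alternatives the p-value ranged from 0.0127 to 0.557. With no fold-change threshold, Lpl was called lower in DMT relative to SHAM (-0.27) and in SHAM relative to SD (-0.27). With the threshold tested in the model (glmTreat), Ucp2 in SHAM vs SD (0.63, adjusted p=0.269) and Lpl in DMT vs SD (-0.54, adjusted p=0.0730) lost their calls. The causes were not tested, except that the latter alternatives change only the threshold.

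The Ucp3 difference in DMT vs SHAM ranged from 0.0451 (without rat 329) to 0.153 CPM over rats left out, with p=0.0455 by exact permutation without DMT rats 325, 341 or 347, each of which had 0 counts. In SHAM vs SD it ranged from -0.00057 (without SHAM rat 321) to 0.0127 CPM. Without the filter on low counts, edgeR gave Ucp3 a log2 fold-change of 3.42 in DMT vs SD (adjusted p=0.0364), which depends on the prior count. The log2 ratio of Fabp4 over Lpl in DMT vs SHAM ranged from -0.18 to 0.56 over rats left out and was below 0 without DMT rats 329 (-0.02) or 347 (-0.18) and SHAM rats 315 (-0.03) or 333 (-0.04). That of Ucp2 over Ucp3 in SHAM vs SD was -0.50 with the shallow libraries summed. By ranks, Fabp1 and Fabp4 had rho=-0.079, and with a pseudocount of 2 the r of Lpl and Ucp3 was -0.56 (adjusted permutation p=0.0496).

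Genes called numbered 1684 (DMT relative to SHAM), 2681 (SHAM relative to SD) and 2663 (DMT relative to SD). They numbered 2975, 5131 and 4682 when the fold-change was ignored and 461, 810 and 1091 with glmTreat. By library totals alone, the share of calls that were higher was 27.5%, 76.9% and 57.5%, compared with 35.9%, 56.5% and 44.1% by TMM, and the median of all genes moved by -0.05, 0.13 and 0.08 (log2). With at least 10 counts required in every rat, Fabp1, Fabp4 and Ucp3 gave no value. No paired analysis was possible because replicate numbers only name rats in order of deposit. At these depths a Ucp3 count of 0 allows up to 0.109 to 0.207 CPM.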

Other observations

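The 2 SHAM libraries left out of the comparisons held few counts of the 5 genes. In rat 343, 35 counts of Lpl, 4 of Ucp2 and 0 of Fabp1, Fabp4 and Ucp3 were found. In rat 348, 14 counts of Lpl, 1 of Ucp2, 1 of Fabp1 and 0 of Fabp4 and Ucp3 were found.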
